A study of Mus musculus with 10 samples.

Results

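Constitutive distal regions were stretches of open chromatin found in every library of the study and lying far from the ends of protein-coding genes. They were chosen by merging the peaks of all 10 ATAC-seq peak lists on chromosomes 1 to 19 and X wherever peaks overlapped by at least 1 bp, and keeping each merged region that held a peak in all 10 lists and whose centre lay over 10 kb from either end of any protein-coding gene (mm10). Of 114366 merged regions, 6512 were such regions (5.69%). They made up 9.43% of the 69027 merged regions at that distance, here called distal, and 33.4% of the 19483 merged regions found in all 10 libraries. The other 12971 of those 19483 lay within 10 kb of a gene end and are called gene-end regions below. Detection in all libraries and distance from a gene end are what chose the regions, so neither is a finding.

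ATAC-seq marks open chromatin by letting a transposase cut and tag accessible DNA. The cells were primary bone marrow progenitors of C57BL/6 mice, enriched on magnetic columns and sorted by flow cytometry, with 5000 to 7200 cells in each reaction. The wild-type groups were long-term hematopoietic stem cells (LT-HSC; Lin- CD117+ Sca-1+ CD135- CD48- CD150+), lymphoid-primed multipotent progenitors (LMPP; Lin- CD117+ Sca-1+ CD135+), monocyte-dendritic cell progenitors (MDP; Lin- Sca-1- CD117+ IL-7R- CD115+) and common dendritic cell progenitors (CDP; positive for CD115 and CD135, intermediate for CD117, and negative for Sca-1, IL-7R and lineage markers). The fifth group was MDP from IRF8-deficient mice (IRF8KO MDP), sorted with the surface markers of the wild-type MDP, so these are the cells that still met that gate without the factor. Each group had 2 libraries. The LMPP libraries carry a cell type entry that names short-term stem cells, and their titles were followed. The allele, the ages of the mice and the animals behind each library are not given in the sources used here, and p-values below measure only the spread between these libraries.

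Distal open chromatin mostly consists of enhancers, which bind transcription factors and act on promoters over long distances, and of sites bound by CTCF, a zinc finger protein that stops loop extrusion by cohesin. Enhancers are known to turn over as blood cells differentiate, whereas promoters of widely used genes and many CTCF sites stay open in most cell types. The annotated starts of long non-coding RNAs (lncRNAs), of transfer RNAs and of shorter transcripts inside long genes also lie far from protein-coding gene ends, and many of the first kind sit in stretches rich in CpG dinucleotides, as promoters do.

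Some of the constitutive distal regions thus held an annotated transcription start. The first 5 sequences below are RefSeq promoter windows (GRCm38.p6, the assembly of mm10) from 5 of the highest-ranked such regions, and the next 2 are windows from regions whose rank changed strongly between cell types. A lncRNA window runs from 250 bases before the start to 50 after it, and a protein-coding window stops before the start. Gm26901 (chr1:7398047-7398346, minus strand) lies between genes, Chaserr (chr7:73558346-73558645, minus strand) lies beside Chd2, a chromatin remodeller whose level it is known to restrain, and 1700028E10Rik (chr5:151368425-151368724, plus strand) lies inside Stard13. Slc39a10 (chr1:46853619-46853868, minus strand) encodes a zinc importer, and Gse1 (chr8:120537159-120537408, plus strand) a protein of histone deacetylase co-repressor complexes; in both, the window precedes an internal start. Gm36756 (chr12:100986379-100986678, plus strand) lies inside Ccdc88c, and 4632428C04Rik (chr16:30008417-30008716, plus strand) lies 56.0 kb from an end of Hes1, a target of Notch signalling. Capitals mark CpG dinucleotides.
Gm26901: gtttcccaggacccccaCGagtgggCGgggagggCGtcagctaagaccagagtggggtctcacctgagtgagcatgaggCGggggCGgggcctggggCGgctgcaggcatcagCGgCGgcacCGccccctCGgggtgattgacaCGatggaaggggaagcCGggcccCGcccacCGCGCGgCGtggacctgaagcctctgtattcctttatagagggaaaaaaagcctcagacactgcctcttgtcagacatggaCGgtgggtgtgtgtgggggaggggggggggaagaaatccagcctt
Chaserr: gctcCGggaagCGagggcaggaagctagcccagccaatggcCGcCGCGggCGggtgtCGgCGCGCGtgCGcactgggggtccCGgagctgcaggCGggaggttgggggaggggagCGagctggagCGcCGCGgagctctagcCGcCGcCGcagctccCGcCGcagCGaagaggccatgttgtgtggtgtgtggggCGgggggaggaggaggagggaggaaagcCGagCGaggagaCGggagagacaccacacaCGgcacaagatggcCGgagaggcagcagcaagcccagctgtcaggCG
1700028E10Rik: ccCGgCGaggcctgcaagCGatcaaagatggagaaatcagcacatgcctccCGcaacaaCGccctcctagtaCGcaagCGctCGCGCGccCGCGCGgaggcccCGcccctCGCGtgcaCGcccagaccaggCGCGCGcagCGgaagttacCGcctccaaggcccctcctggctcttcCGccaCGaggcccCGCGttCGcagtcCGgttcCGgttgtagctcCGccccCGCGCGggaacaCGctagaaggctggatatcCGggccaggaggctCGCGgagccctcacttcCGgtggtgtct
Slc39a10: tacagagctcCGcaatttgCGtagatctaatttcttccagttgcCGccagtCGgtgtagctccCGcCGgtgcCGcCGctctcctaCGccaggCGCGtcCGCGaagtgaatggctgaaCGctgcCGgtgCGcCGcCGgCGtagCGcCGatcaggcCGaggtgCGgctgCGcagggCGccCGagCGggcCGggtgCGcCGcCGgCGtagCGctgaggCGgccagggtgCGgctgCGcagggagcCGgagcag
Gse1: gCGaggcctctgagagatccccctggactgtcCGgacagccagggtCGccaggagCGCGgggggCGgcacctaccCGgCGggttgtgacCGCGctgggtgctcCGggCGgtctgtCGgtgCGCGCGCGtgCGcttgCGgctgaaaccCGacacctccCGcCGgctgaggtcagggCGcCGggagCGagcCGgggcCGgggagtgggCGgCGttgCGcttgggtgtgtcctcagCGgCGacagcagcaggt
Gm36756: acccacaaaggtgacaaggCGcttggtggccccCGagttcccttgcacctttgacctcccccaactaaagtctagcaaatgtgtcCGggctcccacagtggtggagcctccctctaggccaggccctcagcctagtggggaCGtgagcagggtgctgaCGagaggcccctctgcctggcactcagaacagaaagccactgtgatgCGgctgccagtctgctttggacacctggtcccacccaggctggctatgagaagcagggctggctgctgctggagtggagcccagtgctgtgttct
4632428C04Rik: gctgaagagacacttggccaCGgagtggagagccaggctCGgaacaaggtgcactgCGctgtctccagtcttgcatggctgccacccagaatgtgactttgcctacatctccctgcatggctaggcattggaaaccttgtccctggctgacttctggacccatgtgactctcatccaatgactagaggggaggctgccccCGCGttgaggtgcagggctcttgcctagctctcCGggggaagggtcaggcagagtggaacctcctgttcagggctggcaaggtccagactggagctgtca

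The 5 windows of highest-ranked regions held 18, 30, 38, 37 and 32 CpG dinucleotides in the order printed, and the windows at Gm36756 and 4632428C04Rik held 6 each. They are examples, and some windows with more CpG dinucleotides than these last ones also lay in regions of varying rank, as given below. The median lncRNA window in the table of 11574 such windows held 4, and the median of the 436 lncRNA windows in constitutive distal regions held 7. For protein-coding starts the medians were 13 over 21044 windows and 18 over the 417 windows in constitutive distal regions. The median GC content was 52.2% in the lncRNA windows of constitutive distal regions and 61.0% in their protein-coding windows, against 48.3% and 56.7% over the table.

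A consensus match for CTCF on either strand was found in 15 of those 436 lncRNA windows (3.44%, Wilson 95% interval 2.10 to 5.60), which lay in 12 of 363 regions. The shares were 1.37% (0.786 to 2.38) of 875 lncRNA windows in other distal regions and 0.553% (0.433 to 0.705) of all lncRNA windows in the table. Among the 417 protein-coding windows in constitutive distal regions the match was found in 4 (0.959%, 0.374 to 2.44), against 0.566% (0.473 to 0.676) of all protein-coding windows. Windows of 1 gene can overlap, and the intervals cover counting error only. For the other 8 motifs searched, named by their factors, shares are given against those of the 875 lncRNA windows in other distal regions. ETS (GAGGAAGT) was found in 7.34% against 6.40%, and the motif of GATA factors, AGATAAG, in 3.90% against 4.11%. RUNX (TGTGGTT) was found in 9.40% against 11.3%. AP-1 (TGANTCA) was found in 10.6% against 10.7%. The IRF motif was found in 4.13% against 3.31%, and the ETS-IRF composite motif, which can overlap it, in 4.36% against 5.37%. CCAAT was found in 32.1% against 31.3% and the E-box CAGCTG in 83 windows of 436 against 201 of 875. A match is a description of these letters and not a bound site. Gm46218 (chr10:29313368-29313667, minus strand) and Gm40564 (chr9:105495742-105496041, plus strand) are shown because the CTCF match, in capitals, stands in windows that differ in CpG number. The former held 31 CpG dinucleotides and the latter 7, which is the median of the 436 lncRNA windows.
Gm46218: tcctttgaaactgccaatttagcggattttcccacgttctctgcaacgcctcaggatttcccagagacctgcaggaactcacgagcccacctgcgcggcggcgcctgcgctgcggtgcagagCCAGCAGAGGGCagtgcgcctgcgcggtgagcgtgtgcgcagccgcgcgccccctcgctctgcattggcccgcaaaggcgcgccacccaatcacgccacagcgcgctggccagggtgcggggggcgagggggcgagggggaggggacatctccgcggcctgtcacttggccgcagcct
Gm40564: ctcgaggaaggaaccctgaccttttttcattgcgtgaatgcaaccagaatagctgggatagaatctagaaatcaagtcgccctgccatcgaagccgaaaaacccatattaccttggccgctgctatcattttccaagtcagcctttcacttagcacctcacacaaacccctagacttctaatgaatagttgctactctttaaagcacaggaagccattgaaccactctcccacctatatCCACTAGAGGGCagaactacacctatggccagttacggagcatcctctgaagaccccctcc

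Depth and peak number differed among the libraries, and 1 stood apart. Total tags ranged from 4790046 to 10166833, and 19.3% (LT-HSC 1) to 53.7% of tags lay within peaks. LT-HSC 1 had 31325 peaks against 50728 to 69598 in the others, at 5479825 tags, more than in either MDP or IRF8KO MDP library. Within the constitutive distal regions the median peak width ran from 628 bp in LT-HSC 1 to 1011 bp in CDP 1. Of the genes for sorted surface proteins, Kit and Flt3 had a peak centred within 1 kb of a gene end in all 10 libraries, Cd48, Csf1r and Il7r in all but LT-HSC 1, Slamf1 in LMPP 1 alone and Ly6a in none. Of 18 markers of other cell types, 7 had no peak in any library (Pax5, Cd3g, Ncr1, Gata1, Alas2, Syt1 and Rbfox3). The other 11 had one in 1 to 8 libraries, the most being Ltf, of neutrophils, and Snap25, of neurons, with 8 each, and Klf1, of erythroid cells, had one in both LT-HSC libraries alone. No constitutive distal region had Irf8 as its nearest gene, and peak positions carry no check of the knockout.

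Detection of distal regions was mostly narrow, with a second rise at full breadth. Of the 69027 distal regions, 14606 (21.2%) were found in 1 library, 3155 (4.57%) in 7 and 6512 (9.43%) in all 10. Regions within 10 kb of a gene end had 12971 of 45339 (28.6%) in all 10. Another 3914 distal regions were found in 9 libraries, and 2940 of these (75.1%) lacked a peak in LT-HSC 1 alone, so that 9451 regions would meet the rule without that library. Of 4398 found in 8 libraries, 2451 were missed by both LT-HSC libraries and 351 by both IRF8KO MDP libraries.

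**Figure D1:**
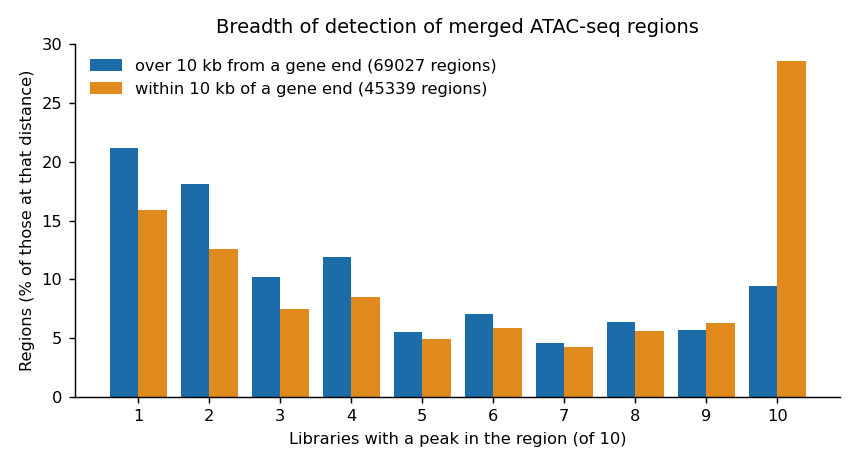
Share of merged regions (y axis, percent of the regions at that distance) by the number of libraries with a peak (x axis), for regions over 10 kb from a protein-coding gene end (blue, 69027) and nearer ones (orange, 45339). The bar at 10 libraries is 9.43% for distal regions and 28.6% for nearer ones.

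Constitutive distal regions lay inside genes slightly more often than other distal regions did, and less often far from any gene. Their centres were inside a protein-coding gene in 3429 cases (52.7%, Wilson 95% interval 51.4 to 53.9), against 50.7% (50.3 to 51.1) of the 62515 distal regions found in fewer libraries. A gene within 100 kb was lacking for 622 (9.55%, 8.86 to 10.3), against 14.7% (14.4 to 15.0). The median distance to a gene end was 33.8 kb, against 41.2 kb. These shares have no test, since regions are not replicates, and the intervals cover counting error only.

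Annotated non-coding genes were more common at the constitutive distal regions. The centre lay within 1 kb of the end of a non-coding RNA gene in 560 of 6512 (8.60%, Wilson 95% interval 7.94 to 9.31), against 4.03% (3.88 to 4.19) of other distal regions. Of the 560, 500 were lncRNA genes, 28 transfer RNA genes, 14 small nuclear RNA genes and 11 microRNA genes. The start of a lncRNA gene lay inside 363 regions (5.57%, 5.04 to 6.16), against 1.22% (1.14 to 1.31), and an internal start of a protein-coding gene inside 359 (5.51%, 4.98 to 6.09), against 0.485% (0.433 to 0.542). Both shares climbed with the number of libraries, being 0.609% and 0.253% for distal regions found in 1 library and 2.19% and 0.905% for those found in 6 to 9. The regions found in all 10 were also wider, with a median of 1442 bp against 669 bp, and a wider region has more room for a start. Within 250 bp of the centre, where width plays less part, the shares were 2.72% (2.35 to 3.14) against 0.822% (0.754 to 0.896) for lncRNA starts and 2.81% (2.44 to 3.24) against 0.323% (0.282 to 0.371) for protein-coding starts.

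**Figure D2:**
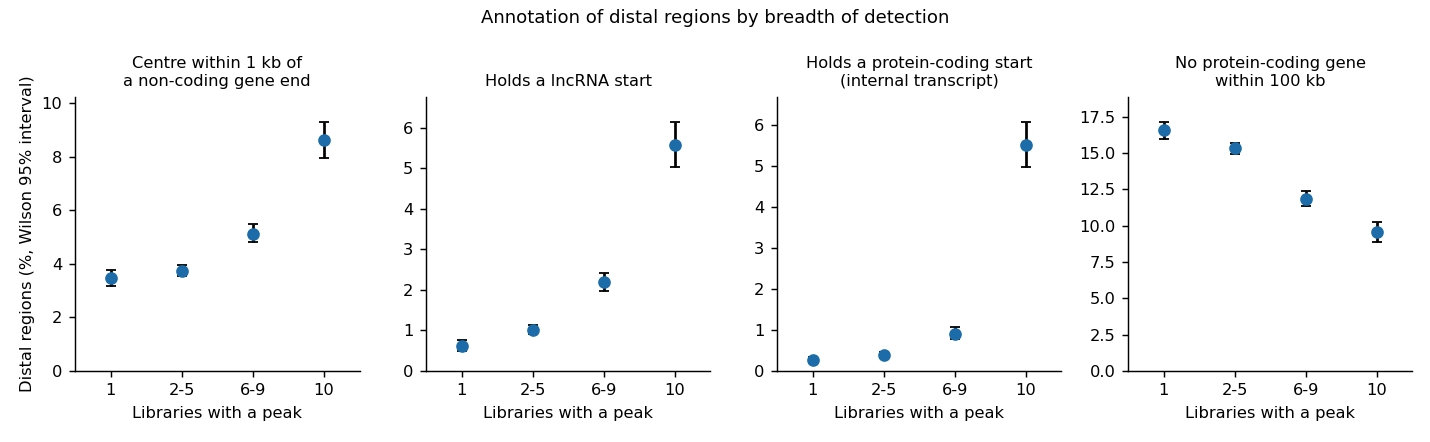
Share of distal regions (y axes, percent with Wilson 95% interval) that meet each annotation, by the number of libraries with a peak (x axes: 1, 2 to 5, 6 to 9 and all 10, the last being the constitutive distal regions). Starts of lncRNA genes and internal protein-coding starts are most frequent at 10 libraries, 5.57% and 5.51%, and regions with no gene within 100 kb least frequent, 9.55%.

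The regions were spread over all 20 chromosomes and gathered at some genes. They made up 8.22% of distal regions on chromosome 19 at the lowest and 10.3% on chromosome 17 at the highest. The median distance to the nearest other one was 37.0 kb, 1602 (24.6%) had another within 10 kb, and 105 had none within 1 Mb. The densest 50-kb window (chr9:2999929-3036892), at the centromeric start of the assembled chromosome, held 9 merged regions, all of them constitutive. None had a protein-coding gene within 100 kb. Repeats and read mapping there were not checked, so these peaks may not mark open chromatin. Windows inside Iqsec1 (chr6:90712751-90758820), an exchange factor for ARF GTPases, and at Tbc1d2b (chr9:90225550-90258875), a regulator of RAB GTPases, held 7 each, of 13 and 10 merged regions.

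A constitutive distal region was nearest to 3276 of 21627 protein-coding genes (15.1%), 1981 of them with exactly 1 and 158 with 5 or more. Gse1 and Mef2c, a MADS-box factor of lymphoid and myeloid development, had 13 each. Nav2, a cytoskeletal protein known from neurons, had 12. Akap13 (an anchor of protein kinase A), Etv6 (an ETS repressor needed for stem cell upkeep in bone marrow), Pde4d (a cyclic AMP phosphodiesterase), Trio (a guanine nucleotide exchange factor) and Zfhx3 (a zinc finger homeobox factor) had 11 each. All 8 are long genes, from 163 kb (Mef2c) to 1302 kb (Pde4d). As shares of the distal regions nearest to each gene, the constitutive ones ran from 12.2% of 90 at Pde4d to 30.2% of 43 at Mef2c, against 9.95% of 59204 over all genes.

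Among lists of genes chosen by function, those for hematopoietic transcription factors most often had such a region. Of the 30 genes, 20 had at least 1 (66.7%, 88 regions), against 15.1% of all genes; the median length of these genes was 67.8 kb, against 17.3 kb. Besides Mef2c and Etv6, Bach2, a repressor of myeloid genes in lymphoid progenitors, had 9. Cell cycle genes followed with 6 of 14, led by Cdk6, a G1 kinase, with 5 regions. Stem cell genes had 8 of 26, among them Erg (6 regions), Cd34 (4) and Meis1 (3), all stem and progenitor cell genes. Lymphoid priming genes had 4 of 14, monocyte and macrophage genes 5 of 20, dendritic cell genes 5 of 20, and chromatin architecture genes 4 of 14. Of lists for other cells, B cell genes had 0 of 10, T and NK cell genes 1 of 12, and neutrophil and granule genes 1 of 15. Erythroid and megakaryocyte genes had 3 of 16 (18.8%, against 15.1% of all genes), and mast cell and basophil genes 1 of 9. Endothelial and stromal genes had 2 of 12, and neuronal genes 4 of 14 at a median length of 441 kb. Housekeeping genes, short at a median of 4.74 kb, had 1 of 14. As a share of the distal regions nearest to each list, the order was different. Constitutive regions made up 23.1% of 13 at housekeeping genes, 6 of 46 at chromatin architecture genes, 12.7% of 692 at the hematopoietic factors and 12.5% of 80 at dendritic cell genes, against 9.95% over all genes. The first 2 shares rest on few genes: all 3 housekeeping regions were at Actb, and 3 of the 6 at chromatin architecture genes were at Yy1. Stem cell genes were below that, at 7.56% of 291, and neuronal genes had 2.53% of 237.

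Regions were compared by the place of their peaks in each list, because the lists give positions and no tag counts. A region's rank in a library was the percentile of its highest-placed peak among the 19483 regions found in all 10 libraries, from 0 (placed last) to 100 (placed first). No source used here says what set the order. It followed the number in the peak name among peaks of the commonest width, which were 30.3% to 42.4% of each list, and over all peaks it also followed width: wider peaks stood higher, with Spearman correlations of 0.813 to 0.865 between row and narrowness in the 10 lists. A percentile is therefore a place in this order, which may mix tag number and width. Percentiles were turned into normal scores and tested with limma (5 groups of 2 libraries, Benjamini-Hochberg adjustment over the 19483 regions). The fit gave all 5 groups the same spread in a region, although replicates were less alike in LT-HSC and more alike in CDP, as given below. The number of calls in a comparison depends on this, so numbers at different steps are not a measure of how much changed. A percentile is relative, so a region can move because others moved. A lower rank could come from fewer cells with the site open or from less opening per cell, which cannot be told apart. Among constitutive distal regions rank went with width as well: across the 6512, the Spearman correlation of the median percentile with merged width was 0.614, and that of the difference in percentile with the difference in log2 peak width was 0.608 to 0.713 in the 4 comparisons. The part of width in the rank differences was not tested. Regions named below as the furthest rises and falls were chosen from those that passed the test, so their call and the gap between the groups restate that choice and are given as a description.

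Constitutive distal regions ranked below gene-end regions in each library, and least so in LMPP. Their median percentile was 33.4 to 35.9 in the 8 libraries of LT-HSC, MDP, CDP and IRF8KO MDP, against 44.9 and 43.8 in the LMPP libraries. The gene-end regions were at 57.4 to 59.7 and, in LMPP, at 52.9 and 53.4. Regions that held a protein-coding start had medians of 57.7 to 61.3 in the 5 groups. Those with no annotated start (5826) had 30.6 in LT-HSC, 42.9 in LMPP, 33.4 in MDP, 32.4 in CDP and 32.1 in IRF8KO MDP.

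The regions with the highest median percentiles were chosen for that rank, and a percentile near 100 leaves little room to move. A region at chr17:39842748-39849068, which overlaps Rn18s-rs5, a ribosomal RNA pseudogene, was at 99.99 to 100 in all 10 libraries. A region inside Sfi1 (chr11:3122634-3200129), a centrosomal protein gene, was 77496 bp wide and was also at 99.99 to 100. Next were chr17:3080526-3085586 (31.9 kb from Scaf8), chr2:98666239-98667549 and chr14:19415475-19419792, with no gene within 100 kb of the last 2, and chr8:4676722-4679719 (45.6 kb from Zfp958), with medians of 99.88 to 99.95. No list of repeat-rich regions was used here. A region 50.6 kb from Gpc5 (chr14:115039720-115043396), a glypican gene, had a median of 99.6 and a range of 99.05 to 99.73, and the region at the internal start of Slc39a10 printed above had 98.83 to 99.78.

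Regions at annotated non-coding genes were likewise taken from the top of the order, as those with the highest median percentiles. The region at Gm26901 was at 98.04 to 99.72 over the 10 libraries, that at 1700028E10Rik at 97.77 to 99.09, that at Chaserr at 93.74 to 98.26, and that at Gm46751, inside Itprid2, at 93.17 to 98.32. The region at Gse1 was at 88.96 and 95.02 in LT-HSC and at 98.61 or more in MDP, CDP and IRF8KO MDP. Gm35035 (chr10:99459212-99462236) was at 92.31 and 90.03 in LT-HSC and at 99.09 and 99.34 in CDP. Regions at a tyrosine transfer RNA gene near Trim55 and an arginine transfer RNA gene near Osbp were at 95.34 to 98.62 and 92.78 to 98.51. Over the 28 regions at transfer RNA genes, the group medians lay between 50.3 and 56.1.

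Regions with CpG-rich starts varied less among libraries. Of the regions with an annotated start in the table, the 341 whose window held over 10 CpG dinucleotides had a median percentile of 60.9 and a median SD over the 10 libraries of 10.0 percentile points, and the 345 with 10 or fewer had 47.1 and 13.9. The classes thus differed in rank too, and a percentile has less room to move near the top. They also mix types of start, since the median window held 18 CpG dinucleotides at protein-coding and 7 at lncRNA starts. The part of either was not tested. The shares that passed the test in either direction (limma, adjusted p under 0.05) were 29.0% of the former and 37.4% of the latter from LT-HSC to LMPP, where 34.2% of all regions tested did. They were 44.3% and 52.2% from LMPP to MDP, against 45.6% of all, and 12.3% and 13.9% from MDP to CDP, against 11.1%. For IRF8KO against wild-type MDP they were 4.11% and 9.28%, against 6.29%. The median SD was 13.4 over all constitutive distal regions and 9.82 over gene-end regions. Single regions went against the difference between the classes. That at Gm38293, whose window held 16 CpG dinucleotides, had an SD of 22.6. That of another Gse1 window (chr8:120488616-120488865), with 13, had an SD of 21.4.

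Although found everywhere, constitutive distal regions were less alike in rank between cell types than gene-end regions were, and also less alike between replicates. Across the 6512 regions, the Spearman correlation between replicates was 0.834 for LT-HSC, 0.949 for LMPP, 0.936 for MDP, 0.968 for CDP and 0.926 for IRF8KO MDP. In gene-end regions the replicates correlated at 0.932, 0.961, 0.959, 0.975 and 0.963 in the same order. Between groups it was 0.651 for LT-HSC with LMPP (mean of 4 library pairs), 0.594 for LMPP with MDP, 0.832 for MDP with CDP and 0.797 for MDP with IRF8KO MDP, and lowest for LT-HSC with CDP, at 0.371. The values between groups for gene-end regions were 0.832, 0.775, 0.911, 0.923 and 0.753. For each of the 10 pairs of groups the value was lower in the distal regions. The LT-HSC replicates, at 0.834, were about as alike as MDP and CDP. These correlations are across regions, which share libraries and are not replicates, and they differ in range of ranks between the classes, so they are given as a description.

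**Figure D3:**
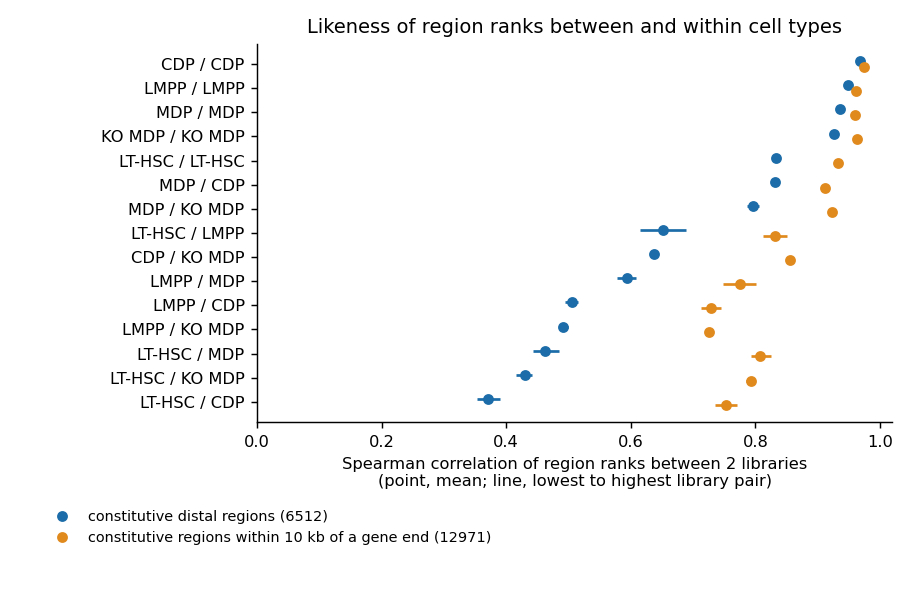
Spearman correlation of region ranks between libraries (x axis) for each pair of groups and for replicates within a group (y axis), in constitutive distal regions (blue, 6512) and gene-end regions (orange, 12971); points are means and lines the range over library pairs. The blue point is to the left of the orange one in every row, from 0.371 against 0.753 for LT-HSC with CDP to 0.968 against 0.975 for the CDP replicates, and the replicates of LT-HSC are at 0.834 against 0.932.

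From LT-HSC to LMPP, constitutive distal regions mostly moved up in rank. Of the 6512, 1846 were higher in LMPP (28.3%), where 15.8% of all regions tested were, and 470 were lower (7.22%), against 18.4% (limma, adjusted p under 0.05). Among gene-end regions, 9.44% were higher and 24% lower. The split depends on the frame: ranked among themselves alone, 1129 distal regions were higher and 1089 lower. Fitted on only the 4 libraries compared, 1525 were higher and 300 lower. Of the 5826 regions with no annotated start, 29.5% were higher and 6.30% lower, and of the 359 with a protein-coding start 13.1% and 17.8%. The tags within peaks went from a mean of 28.7% in LT-HSC to 47.1% in LMPP and the median peak width in these regions from 703 to 927 bp, and the part of either in the result was not tested. Without LMPP 1 the regions lower numbered 302, and without LMPP 2 they numbered 260.

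The regions that rose furthest in LMPP had percentiles under 10 in LT-HSC. A region inside Inpp5a (chr7:139565930-139567379), an inositol phosphate phosphatase gene, was at percentiles of 1.82 and 7.87 in LT-HSC and 88.2 and 92.1 in LMPP (adjusted p = 3.31e-05, limma). It was at 2.99 to 33.5 in the other 6 libraries, so the LMPP libraries alone were high. The region at Gm36756 inside Ccdc88c, a regulator of WNT signalling, was at 8.41 and 7.50 in LT-HSC and at 90.6 and 93.9 in LMPP (limma, adjusted p = 6.24e-07), and it stayed between 63.7 and 86.0 in the later stages. Regions inside Gpc6, a glypican (chr14:117760428-117763680), at chr10:126501604-126503395 with no gene within 100 kb, and inside Tnc, the matrix protein tenascin C (chr4:63970537-63971756), went from means of 3.46, 6.12 and 5.75 to 85.7, 85.6 and 84.5.

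The regions that fell furthest in LMPP ranked high in LT-HSC, and some of them regained rank at later stages. A region inside Slc14a1, the urea transporter of red cells, was at 79.8 and 69.4 in LT-HSC and at 0.0642 to 10.51 in the other 8 libraries (LMPP 2.77 and 6.41; limma, adjusted p = 0.00242). A region 15.1 kb from Dlk1 (chr12:109436185-109438580), an imprinted Notch-like ligand, was at 75.1 and 88.3 in LT-HSC and 15.7 and 20.5 in LMPP (limma, adjusted p = 1.34e-04). Regions inside Rad51b, a recombination gene, and Gda, guanine deaminase, fell from means of 67.8 and 78.4 to 2.31 and 14.2, and the former was at 53.3 and 60.6 in CDP. A region at chr17:13550493-13553331, with no gene within 100 kb, was at 85.9 and 52.2 in LT-HSC and 1.67 and 11.8 in LMPP; its adjusted p of 0.00491 (limma) became 0.0541 without LMPP 1.

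Lists of genes held rises and falls at this step, where 28.3% of all constitutive distal regions were higher and 7.22% lower. Of the 22 regions at stem cell genes 7 were higher (31.8%) and 2 lower (9.09%) in LMPP. A region 10.7 kb from an end of Cd34 (chr1:194927108-194929127), a progenitor surface protein, was at 14.6 and 14.3 in LT-HSC and at 86.5 and 85.2 in LMPP (adjusted p = 1.52e-06, limma), while its neighbour at chr1:194975599-194977991 was at 84.4 to 94.9 in all libraries. Of the 88 regions at hematopoietic factors 19 were higher (21.6%) and 8 lower (9.09%). Of the 13 at cell cycle genes 6 were higher and 1 lower, 3 of the higher ones at Cdk6. A region at Zfpm1, a cofactor of GATA1, was at 58.1 and 82.7 in LT-HSC and 4.56 and 15.4 in LMPP (limma, adjusted p = 6.85e-04). The region inside Zbtb46, a factor of conventional dendritic cells (chr2:181457957-181460852), was at 73.4 and 70.6 in LT-HSC, 25.0 and 28.4 in LMPP and 50.1 to 63.7 in later stages (LMPP against LT-HSC limma, adjusted p = 1.20e-04). It was thus high in stem cells, low in LMPP and intermediate in MDP and CDP.

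From LMPP to MDP the balance was the reverse. Of the 6512 regions, 944 were higher in MDP (14.5%), against 24.3% of all regions tested, and 1961 lower (30.1%), against 21.3% (limma, adjusted p under 0.05). Gene-end regions had 29.3% higher and 16.9% lower. Ranked among themselves, 1423 distal regions were higher and 1288 lower. Without MDP 2, 566 were higher. This comparison shares the LMPP libraries with the first, so a high LMPP value enters both.

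The regions that rose furthest were low in LMPP and, except for that inside Fhad1, low in LT-HSC. A region inside Cdyl2, a chromodomain protein gene (chr8:116626909-116629693), was at 2.65 to 5.91 in the 4 LT-HSC and LMPP libraries and at 75.2 to 92.1 in the other 6 (MDP against LMPP limma, adjusted p = 1.04e-05). A region inside Mapk4, an atypical MAP kinase, went from 6.43 and 5.47 in LMPP to 90.7 and 89.5 in MDP. A region inside Dpysl2, a microtubule-binding protein gene (chr14:66871306-66874268), went from 5.82 and 15.1 to 84.5 and 80.5, and was at 28.8 and 32.3 in IRF8KO MDP. A region inside Fhad1 (chr4:141993394-141995090) was at 89.2 and 91.4 in MDP and at 31.8 and 44.1 in CDP, and a region at chr1:184535387-184537343 with no gene within 100 kb rose from 4.91 and 1.75 to 70.4 and 79.2.

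The regions that fell furthest ranked high in LMPP. A region 37.3 kb from Jam3, a junctional adhesion protein of stem cells (chr9:27191186-27194235), was at 78.3 and 74.0 in LT-HSC, 96.4 and 96.1 in LMPP and 2.13 to 7.70 in the other 6 libraries (MDP against LMPP limma, adjusted p = 4.15e-06). A region 14.8 kb from Efnb2, the ligand ephrin B2 (chr8:8601334-8603496), was at 80.0 to 89.4 in LT-HSC and LMPP and at 0.0693 to 9.61 in the rest. These were among the 3 with the largest SD over libraries, 42.5 percentile points for the region near Jam3 and 41.98 for that near Efnb2. The third lay at chr2:9593439-9595707 with no gene within 100 kb, at 95.4 to 96.8 in LT-HSC and LMPP and 4.58 to 19.6 afterwards. Regions inside Wwox, 45.2 kb from Cmpk2, and at chr12:38969806-38971223 with no gene within 100 kb fell from LMPP means of 96.9, 88.5 and 89.0 to MDP means of 11.9, 4.48 and 0.547.

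At lymphoid and myeloid genes, single regions of 1 gene moved in opposite directions. Of 2 regions at Flt3, the receptor by which LMPP and CDP were sorted, that at chr5:147365946-147367075 was at 86.0 and 83.7 in LMPP and 38.1 and 35.2 in MDP (adjusted p = 6.86e-05, limma). The other, at chr5:147387974-147389957, was at 17.1 and 19.9 in LMPP and 76.3 and 70.9 in MDP (limma, adjusted p = 4.54e-05). One region was highest in LMPP, and the other stepped up from LT-HSC, at 2.05 and 2.80, to LMPP and again to MDP. Over all constitutive distal regions 30.1% fell and 14.5% rose at this step. Of 10 regions at monocyte and macrophage genes 6 fell and 1 rose. All 3 regions at Meis1, a homeobox factor of stem cells, fell. The one that fell furthest (chr11:18969389-18971067) was at 88.3 and 88.8 in LMPP and 48.3 and 52.1 in MDP (limma, adjusted p = 6.74e-05). Of the 13 regions at Mef2c 6 fell and 2 rose, the latter a share near that of all. Of the 6 at chromatin architecture genes 5 rose, with 3 at Yy1, a zinc finger factor that joins enhancers to promoters, and 1 at the cohesin gene Stag1. The 3 at Yy1 are neighbours, and 1 of them went only from 93.7 and 94.6 in LMPP to 98.7 and 98.9 in MDP. The region at Stag1 went from 97.15 and 98.4 to 99.2 and 99.5, near the top of the order.

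Between MDP and CDP fewer regions passed the test than at the earlier steps. Of the 6512, 361 were higher in CDP (5.54%), against 4.22% of all regions tested, and 495 lower (7.60%), against 6.87% (limma, adjusted p under 0.05), shares near those of all regions. Fitted on only the 4 libraries compared, 653 were higher and 645 lower, with no excess of lower calls. Depth differed, with 5394861 and 5328234 tags in MDP and 10166833 and 7985428 in CDP, and its part in the result was not tested. The counts rested on both replicates: 169 were higher and 234 lower without MDP 1, 121 and 231 without MDP 2, 75 and 226 without CDP 1, and 99 and 242 without CDP 2. In each of these a lone library was assumed to vary like the other groups. At an unadjusted p under 0.05, 907 were higher and 981 lower.

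The leading falls included a far region at Kit, the receptor for stem cell factor, whose surface level is lower in the CDP gate. That region (chr5:75730207-75731887), 74.3 kb from the nearer gene end, was at 74.9 and 75.7 in MDP and 9.80 and 6.47 in CDP (adjusted p = 2.54e-05, limma). It was at 60.7 to 94.9 in the other 6 libraries, so CDP alone was low. Regions near D16Ertd472e (chr16:78472999-78474127) and inside Tbc1d2b (chr9:90239774-90246375) fell from MDP means of 62.2 and 84.5 to CDP means of 1.05 and 16.2, and were also low in CDP alone. Regions inside Pla2g4a, a cytosolic phospholipase gene, and near Prdm2, a histone methyltransferase gene, fell from MDP means of 70.3 and 89.95 to CDP means of 10.1 and 31.5. Of the 5 regions at Cdk6, 2 fell, where 7.60% of all constitutive distal regions did, among them chr5:3496925-3499184, at 72.2 and 68.7 in MDP and 22.6 and 19.3 in CDP (limma, adjusted p = 0.00149). Of the 5 at Runx2, a factor of plasmacytoid dendritic cells, also 2 fell, among them chr17:44654274-44655340, at 39.4 and 46.3 in MDP and 10.6 and 4.64 in CDP (limma, adjusted p = 0.0016).

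The leading rises in CDP were at Zfp469, Gm46353, Hes1, Rnf145 and Bcor. The region at 4632428C04Rik near Hes1 was at 5.69 and 2.00 in MDP and 62.8 and 57.2 in CDP (adjusted p = 0.00148, limma), and at 4.86 to 30.6 in the other 6 libraries. Regions inside Zfp469 and inside Rnf145, a ubiquitin ligase gene, rose from 31.0 and 30.4 to 90.2 and 85.0. The region near Gm46353 was at 18.2 and 8.05 in MDP and 81.8 and 58.3 in CDP, and its adjusted p of 0.0061 (limma) became 0.0621 without MDP 2 and 0.0719 without CDP 1. The region inside Bcor, a co-repressor of BCL6, was at 8.19 and 5.31 in MDP and 66.1 and 51.5 in CDP, and its adjusted p of 0.00479 (limma) became 0.0544 without CDP 1. Both of these regions were over 5000 bp wide, with widths of 5642 and 5306 bp.

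In IRF8KO MDP, more regions were called lower than higher in rank, and this held for all regions tested as well as for the distal ones. Of the 6512, 175 were higher than in wild-type MDP (2.69%), against 1.67% of all regions tested, and 485 lower (7.45%), against 4.62% (limma, adjusted p under 0.05). Gene-end regions had 1.16% higher and 3.21% lower. Over all regions tested 325 were higher and 901 lower, and at gene ends 150 and 416, so the excess of lower calls was not particular to distal regions. The knockout libraries had 43.8% of tags within peaks against 52.5% in wild-type MDP, and a median peak width in these regions of 710 against 830 bp; the part of either was not tested. Without MDP 1, 46 were higher and 150 lower, without MDP 2 57 and 241, without IRF8KO MDP 1 56 and 302, and without IRF8KO MDP 2 52 and 305. This comparison and the previous ones share the wild-type MDP libraries.

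**Figure D4:**
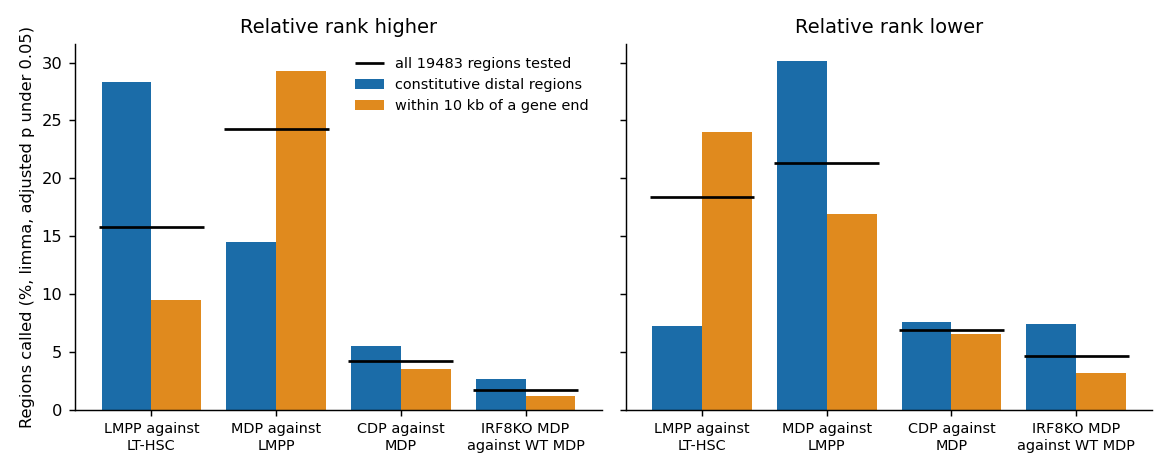
Regions called higher (left) or lower (right) in relative rank (y axis, percent, limma, adjusted p under 0.05) in the 4 comparisons (x axis), for constitutive distal regions (blue) and gene-end regions (orange); black lines mark all 19483 regions tested. Distal regions reach 28.3% higher from LT-HSC to LMPP and 30.1% lower from LMPP to MDP, and 7.45% lower in IRF8KO MDP.

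The regions that fell furthest without IRF8 dropped to percentiles under 12. A region 26.7 kb from Bcl11a (chr11:24199490-24201114), a zinc finger factor of plasmacytoid dendritic and lymphoid cells, was at 81.5 and 76.8 in wild-type MDP and 5.48 and 7.39 in IRF8KO MDP (adjusted p = 1.64e-05, limma). It was at 78.8 to 86.9 in LMPP and CDP and at 41.5 and 33.5 in LT-HSC, so the knockout was lower than any wild-type group. A region inside Nbea, a vesicle traffic gene (chr3:55651740-55653451), was at 86.9 and 82.2 in wild-type and 8.64 and 7.93 in IRF8KO MDP (limma, adjusted p = 1.64e-05). A region inside Msr1, a macrophage scavenger receptor (chr8:39618515-39620980), was at 82.3 and 72.9 against 1.91 and 7.58, and one inside Filip1, a filamin-binding protein gene (chr9:79950860-79953237), at 76.5 and 78.2 against 4.27 and 3.09. A region inside Tnr, the matrix protein tenascin R (chr1:159734560-159735883), was at 81.0 and 84.9 against 11.62 and 6.803, near its 11.2 and 7.06 in LT-HSC. At hematopoietic factors 8 of 88 regions fell (9.09%) and 0 rose, against 7.45% and 2.69% of all constitutive distal regions, 3 of those that fell at Bach2, 2 at Mef2c and 1 at Etv6. That at Etv6 (chr6:134219447-134221289) was at 83.3 and 73.3 in wild-type and 2.02 and 9.95 in IRF8KO MDP (limma, adjusted p = 1.58e-04), the lowest of the 5 groups.

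The regions that rose furthest without IRF8 ranked low in wild-type MDP. A region inside Igf1r, the receptor for insulin-like growth factor (chr7:68148144-68150296), was at 10.7 and 1.67 in wild-type and 68.3 and 74.2 in IRF8KO MDP (adjusted p = 0.00221, limma), and at 0.408 to 36.1 elsewhere. Regions inside Cfap61, a cilium gene (chr2:146197686-146198949), and Rbpms, an RNA-binding protein gene (chr8:33816552-33818158), were at means of 4.97 and 3.91 in wild-type MDP and 54.1 and 50.3 in IRF8KO MDP. Both were also at 50 or above in LT-HSC, with means of 65.1 and 51.5, and at 2.67 and 2.47 in CDP. The region at chr17:13550493-13553331 went from 0.367 and 3.27 to 62.3 and 60.4, and its adjusted p of 0.0102 (limma) became 0.105 without MDP 1, 0.0645 without IRF8KO MDP 1 and 0.0614 without IRF8KO MDP 2. A second region inside Mapk4 was at 8.25 and 34.7 against 69.6 and 66.6, with an adjusted p of 0.0395 (limma) that became 0.299 without MDP 1, 0.183 without IRF8KO MDP 1, 0.158 without IRF8KO MDP 2 and 0.0647 in a fit with no trend.

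**Figure D5:**
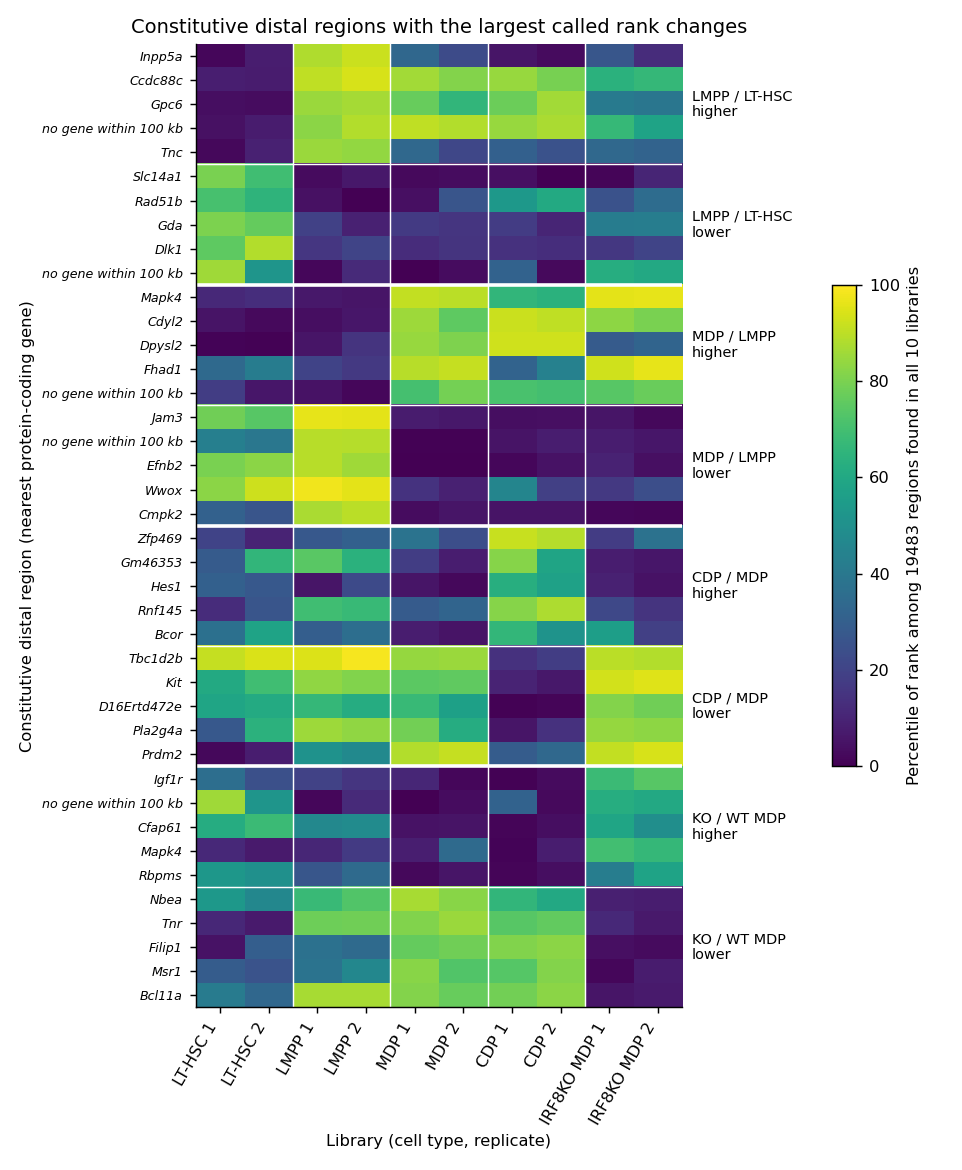
Percentile of rank (colour, 0 to 100, among 19483 regions) in each library (x axis) of the 5 regions with the largest rise and the 5 with the largest fall among those called in each comparison (y axis, nearest protein-coding gene; right, the comparison). Some regions stand out in 1 cell type, such as Inpp5a, highest in LMPP (88.2 and 92.1), and Kit, lowest in CDP (9.80 and 6.47); 1 region with no gene within 100 kb appears under 2 comparisons.

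Most constitutive distal regions passed the test in at least 1 comparison, as did 63.4% of all 19483 regions tested. In 2213 (34%) no comparison passed the test, 2365 (36.3%) passed in 1, 1470 (22.6%) in 2, 424 (6.51%) in 3 and 40 (0.614%) in all 4. Among gene-end regions 38% passed in none, 34.2% in 1, 23.9% in 2, 3.74% in 3 and 0.216% in all 4. The shares of the 2 classes were thus close for none, 1 and 2. Regions of the same gene did not always move alike: of the 12 regions at Nav2, 6 rose and 1 fell from LT-HSC to LMPP and 5 fell from LMPP to MDP, where over all constitutive distal regions 28.3% rose and 30.1% fell, whereas of the 11 at Pde4d 2 rose at the first step and none passed in the other 3 comparisons.

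MicroRNA hairpins overlapped 9 constitutive distal regions, with 10 hairpins in all. The mature strands of Mir9-2, near Mef2c, and of Mir193a, near Rab11fip4, are shown because the rank of these regions moved in opposite directions between LMPP and MDP. miR-9 is best known from neural progenitors, and miR-193a is known as a repressor of Kit. Capitals mark the seed, bases 2 to 8; the sequences are RefSeq's, and no 2 of the 4 share a seed.
miR-9-5p: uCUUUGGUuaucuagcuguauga
miR-9-3p: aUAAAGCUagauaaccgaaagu
miR-193a-5p: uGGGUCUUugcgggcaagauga
miR-193a-3p: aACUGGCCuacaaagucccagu

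The region at Mir9-2 (chr13:83737389-83740423) was at 43.2 and 55.3 in LT-HSC, 69.3 and 46.2 in LMPP and 1.20 to 10.52 in the other 6 libraries (MDP against LMPP limma, adjusted p = 5.13e-04). It was near the middle of the order in LT-HSC and LMPP and near the bottom in each MDP, CDP and IRF8KO MDP library. The region at Mir193a (chr11:79710672-79712098) was at 0.326 to 4.40 in LT-HSC and LMPP and at 17.9 to 27.6 in the others (limma, adjusted p = 0.0198). The other 7 regions with a hairpin had median percentiles from 9.65 (Mir6999) to 98.7 (Mir7687, in the Gse1 region).

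The rule's distance limit cut through a run of regions. Just over it were regions whose centres lay 10003 bp from an end of Igsf11 and 10018 bp from one of Stk4, and just under it regions 9985 bp from Hdac9 and 9979 bp from Lnpep. Between 9 and 11 kb there were 504 regions found in all 10 libraries, 236 of them over 10 kb.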

How the data were processed

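ATAC-seq peaks were analysed from 10 libraries in 5 groups of 2. Per the file headers, the authors called peaks in each library with HOMER findPeaks (size 500 bp, minimum distance 1000 bp, stitched regions, FDR 0.001, at least 4-fold over the surrounding 10 kb, at most 1 tag per bp, no control library). Bowtie 1.1.2, HOMER 4.9 and mm10 are named in the submitters' processing notes. The score column as deposited by the authors was 1 in each row, and no tag counts per peak were used. Row order served as rank, though no source used here says what set it. Its Spearman correlation with the number in the peak name was 0.956 to 0.982 for 501-bp peaks (mean over chromosomes, 30.3% to 42.4% of peaks), and with narrowness 0.813 to 0.865 over all peaks. Peaks were merged, and region ranks, as normal scores, were tested with limma 3.58.1 (R 4.3.3, trend) over 19483 regions. The procedure was first run on simulated ranks, for CDP against MDP alone and with the same spread in all regions and groups. That run does not cover a spread that differs between groups. RefSeq genes of GRCm38.p6 gave annotation. Genes were the nearest protein-coding gene within 100 kb. Named regions were the 8 highest by median percentile, the 5 largest called changes each way per comparison, the 8 highest at non-coding gene ends, and the 3 with the largest and smallest SD. Regions at listed genes and microRNAs were added after their values were seen. The constitutive distal regions and gene lists were chosen with earlier results of these data known. Alternatives covered the distance, merging, detection, ranking, fit and each library left out.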

Additional observations from a re-analysis of the deposited data

How the results depend on the processing

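The number of constitutive distal regions, 6512, was 2332 beyond 50 kb, 10426 for detection in at least 9 libraries, 11992 for the 8 libraries other than LT-HSC, 3552 with lists trimmed to equal length and 4320 when ends of all genes counted. Leaving out 1 library gave 6543 to 9451, the highest without LT-HSC 1. The share at a non-coding gene end was 13.9% within 2.5 kb, against 8.14% of distal regions found in fewer than 10 libraries and 9.59% of those found in 6 to 9. With starts counted only within 250 bp of the centre, an alternative chosen after seeing the data, the shares were 2.72% for lncRNA and 2.81% for protein-coding starts. Ranked among themselves, 1129 regions were higher and 1089 lower in LMPP than in LT-HSC, 1423 and 1288 in MDP than in LMPP, and 277 higher in IRF8KO than in wild-type MDP. With only the 4 libraries compared, 1525 were higher and 300 lower in LMPP, and 653 were higher and 645 lower in CDP.

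Leaving out 1 library, with the lone library of its group assumed to vary like the others, gave 260 to 499 lower in LMPP, 566 to 695 higher in MDP, 75 to 169 higher and 226 to 242 lower in CDP, and 46 to 57 higher and 150 to 305 lower in IRF8KO MDP. The cause of these shifts was not tested, other than the smaller number of libraries. Of 418 alternatives for the 40 named rank results, 407 kept direction and call, 11 lost the call (10 of them by leaving out a library) and 0 reversed. Of 168 alternatives for counts of regions at genes, 18 moved by over 1.5 times.

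Replicate numbers did not pair the libraries: deviations of same-numbered libraries correlated at -0.0449 to 0.0374. With the replicate block, the counts higher and lower were 1835 and 449, 923 and 1944, 331 and 475, and 161 and 459 in the 4 comparisons in the order of the report. The share of regions with a sequence motif was not run, since no genome was used here. Peak lists carry no counts for sites without a peak, so a region absent from a list may be closed or below the calling threshold. LT-HSC 1, with the fewest peaks, had 5479825 tags, within the range of the other libraries, and the lowest share of tags within peaks, 19.3%.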

Other observations

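Comparisons that share no library could be set side by side. Of the 485 constitutive distal regions lower in IRF8KO than in wild-type MDP, 246 (50.7%) were higher in LMPP than in LT-HSC, which is 13.3% of the 1846 regions higher there. Of all constitutive distal regions, 28.3% were higher at that step. Another 21 of the 485 (4.33%) were lower in LMPP, against 7.22% of all. Of the 175 regions higher in IRF8KO MDP, 50 (28.6%) were higher in LMPP. For CDP against MDP, 169 of the 495 lower regions (34.1%) and 119 of the 361 higher ones (33.0%) were higher in LMPP. Of the same 495 and 361 regions, 47 (9.5%) and 35 (9.7%) were lower in LMPP. Both directions thus exceeded the shares of all constitutive distal regions. No test was made of these overlaps.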
